A study of Mus musculus with 2 samples.

Results

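The platelet-derived growth factor (PDGF) genes are described here in mouse embryonic fibroblasts (MEFs, connective tissue cells grown from embryos) labelled as lacking the Lats2 kinase or as wild type. The members were the 4 ligand genes Pdgfa, Pdgfb, Pdgfc and Pdgfd and the 2 receptor genes Pdgfra and Pdgfrb, found by gene name among the non-control probes of an Agilent whole mouse genome array. They had 12 of the 41174 probes and were 6 of the 27745 gene names on the array, with 9 ligand probes and 3 receptor probes. Both RNAs came from untreated MEFs of C57BL/6J mice, 1 from Lats2-/- (KO) and 1 from Lats2+/+ (WT) animals, grown in medium with fetal bovine serum. The labels spell the gene name as LAT2 in the genotype field and as LATS2 in the titles. On array 1 the RNA labelled KO carried Cy5 (red) and the RNA labelled WT carried Cy3 (green), and on array 2 the dyes were exchanged. Since the labels mention no separate embryos or cultures, this was read as a technical dye swap, which makes 1 replicate. The SD given for a ratio covers n = 2 arrays and measures hybridisation and dye error. The ratios are therefore given without a test of the genotypes, and tests run on the 2 arrays as alternatives compare these RNAs only. The age of the embryos and the number of embryos pooled are not given in the sources used here.

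PDGF ligands are secreted dimers that drive fibroblasts, pericytes and smooth muscle cells to divide and migrate, and fibroblasts are a classic target cell. PDGF-A and PDGF-B are secreted ready to bind, whereas PDGF-C and PDGF-D carry an extra CUB domain that a protease has to remove first. The receptors are tyrosine kinases that pair on ligand binding. PDGFR-alpha binds the A, B and C chains and PDGFR-beta binds mainly the B and D chains.

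The check of the labels went against them at the targeted gene. Lats2 had 4 probes, of which 3 were higher in the RNA labelled KO, with mean log2 ratios of KO over WT of 0.56, 0.56 and 0.63. The fourth, at a larger genome coordinate, had a mean of -0.35. Lats1, the related kinase, was at -0.03. Which part of Lats2 the deletion removed is not given in the sources used here, so these probes may lie outside it. Every direction below rests on the labels alone, and if the dye labels were exchanged every sign and the order of the members would turn, which was not tested. Across the 22357 probes well above background in both genotypes the ratios of the 2 arrays correlated with Pearson's r = 0.937 and Spearman's rho = 0.86. Across probes the arrays differed with an SD of 0.137 on the log2 scale for a single array. Probes are not independent replicates.

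Of the 6 genes, Pdgfd stood apart. Its signal was 5.72-fold higher in the RNA labelled KO, and it was the 1 member that was at least 2-fold different on each array, the rule for a call used here. The study's methods also set 2-fold, together with a p-value, and do not ask for it on each array. The study describes its MEF expression data as drawn from independent cell lines, whereas the 2 arrays here are 1 dye swap. Pdgfa was 1.75-fold higher and missed the threshold. The signals of Pdgfb, Pdgfc and Pdgfra in the RNA labelled KO were 65.0%, 75.5% and 75.1% of those in the RNA labelled WT, and that of Pdgfrb was 93.4%. All 6 genes were well above background (by the scanner software's flag) in both genotypes on both arrays at their brightest probe. No probe of the members was saturated. The threshold was passed in the higher direction by 1 of the 6 genes, beside 2.95% of the 15877 genes detected that well in 1 genotype or both. It was passed in the lower direction by 0 of the 6, beside 2.61%. By probe, 2 of the 12 passed it in the higher direction, both of Pdgfd, beside 2.48% of 24186 probes, and 0 passed in the lower direction, beside 2.08%.

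**Figure D1:**
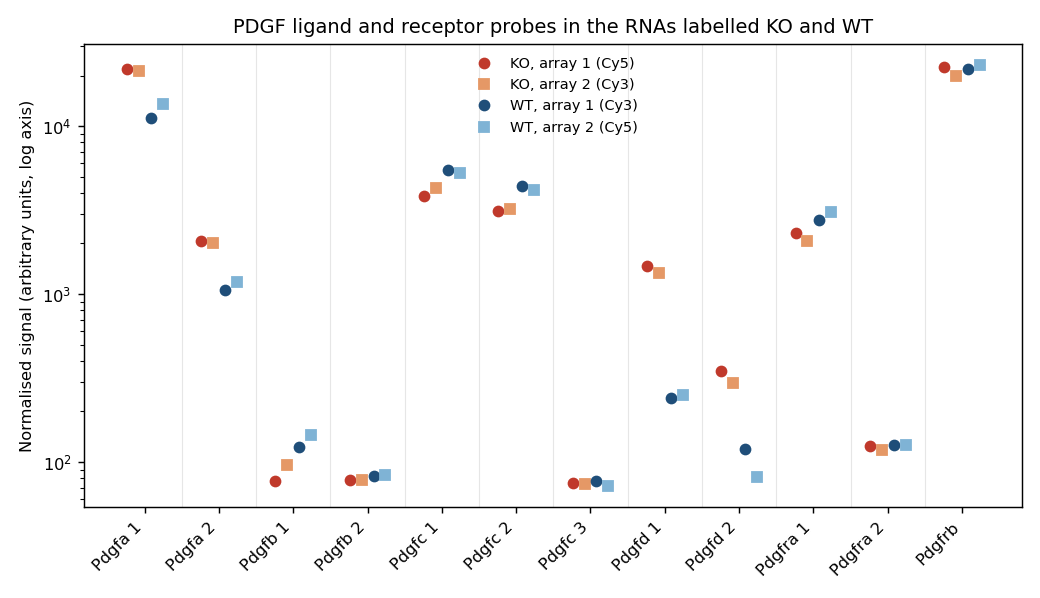
Normalised signal of each PDGF probe (arbitrary units, log axis) in the RNA labelled KO (red and orange) and the RNA labelled WT (blue), with circles for array 1 and squares for array 2, and 1 point per genotype and array. Probes of a gene are numbered from the brightest, and heights are comparable only within a probe. The red and blue points are far apart for both Pdgfd probes, apart for both Pdgfa probes, and close for Pdgfrb.

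Among the ligands, Pdgfd encodes the chain that needs activation by proteolysis and signals mainly through PDGFR-beta. Its start region is shown because this gene had the largest ratio of the family. The 250 bases before its annotated start, from RefSeq on GRCm38.p6, lie at chr9:6168236-6168485 on the plus strand and are 53.6% G and C. Capitals mark a match to the motif TATAAA, the core sequence of a TATA box, 160 to 155 bases before the start. Whether this match acts as a TATA box was not tested.

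Pdgfd: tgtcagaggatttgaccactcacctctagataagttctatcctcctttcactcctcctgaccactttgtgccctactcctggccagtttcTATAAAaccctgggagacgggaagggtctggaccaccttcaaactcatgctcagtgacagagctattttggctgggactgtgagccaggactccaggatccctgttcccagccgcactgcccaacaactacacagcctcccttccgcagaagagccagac

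The motifs searched on both strands were TATAAA, the GC box core GGGCGG bound by Sp1, the core GGAATG bound by TEAD factors (the DNA-binding partners of YAP and TAZ, which Lats kinases inhibit), and the EGR1 site GCGGGGGCG. Over the 32851 start regions of the same length used here, with chromosome 18 left out, these were held by 12.4%, 32.7%, 12.6% and 2.57%. The window of Pdgfd held 1 TATAAA and no other of these motifs.

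The brighter Pdgfd probe targets the sequence BC030896 at chr9:6378717-6378776 (plus strand, mm8, the build of the array's annotation). Its normalised signal in the RNA labelled KO was 1460 on array 1 and 1330 on array 2, against 239 and 249 in the RNA labelled WT. The genotypes did not overlap, whichever dye each carried. The share of all probes without such overlap is not given here. Statements on overlap, here and below, therefore only describe the printed values. The log2 ratio was 2.61 on array 1 and 2.42 on array 2, with a mean of 2.52 ± 0.136 (SD, n = 2 arrays). A higher mean ratio was found for 0.38% of the 24186 probes well above background.

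The other Pdgfd probe, NM_027924 at chr9:6376926-6376985, starts 1791 bases away. It read 346 and 295 in the RNA labelled KO against 119 and 81.4 in the RNA labelled WT, a mean log2 ratio of 1.70 ± 0.224 (SD, n = 2 arrays) or 3.25-fold. The probes differed by 0.81 on the log2 scale under this processing, which adds a constant of 50 to every signal and so draws dim probes towards 0. Under Feature Extraction's own ratio, made by the scanner software without that constant, the mean of both probes was 2.93. With a constant of 10 the brighter probe was at 2.77 and the dimmer at 2.32. The size of the Pdgfd difference moved with the processing, and its direction was the same in the settings run.

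By the distance between ratios over the 2 arrays, the 3 genes most like Pdgfd among 14722 were Cst6, Mboat2 and Lrp2. Cst6, encoding the cysteine protease inhibitor cystatin E/M, had 2.58 and 2.39 on the arrays (distance 0.0445). Mboat2, encoding a lysophospholipid acyltransferase, had 2.59 and 2.52, and Lrp2, encoding the endocytic receptor megalin, had 2.5 and 2.38. With 2 arrays of 1 dye swap this likeness is one of ratio size only.

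**Figure D2:**
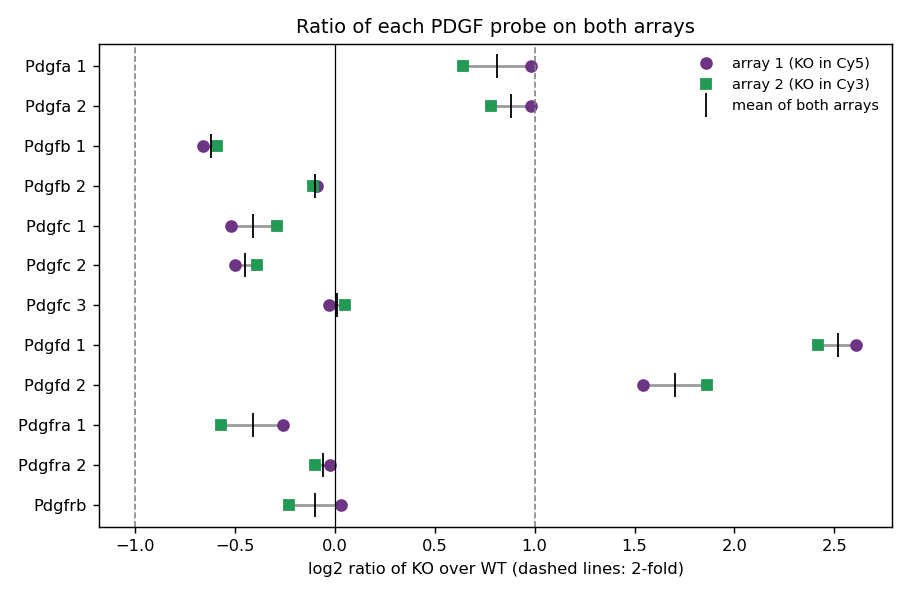
Log2 ratio of KO over WT of each PDGF probe on array 1 (purple circles) and array 2 (green squares), with a black tick at their mean and dashed lines at 2-fold. The Pdgfd probes lie beyond 2-fold on both arrays, Pdgfa reaches 0.98 on array 1, and the arrays fall on opposite sides of 0 for Pdgfrb and for the dimmest Pdgfc probe.

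Pdgfa encodes the A chain, whose homodimer signals through PDGFR-alpha. RefSeq lists 2 start regions for it, both on the minus strand of GRCm38.p6, shown because Pdgfa was the other member with a higher signal. Capitals mark the GC box core, written on the opposite strand in the region first given. That region, chr5:138994945-138995194, is 72.4% G and C and holds 2 such cores, at 93 to 88 and 86 to 81 bases before the start. The other, chr5:138994282-138994531, is 66.4% G and C and holds 1, at 60 to 55 bases. Neither holds TATAAA, and the median over the start regions used here was 52.4% G and C.

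Pdgfa, first region: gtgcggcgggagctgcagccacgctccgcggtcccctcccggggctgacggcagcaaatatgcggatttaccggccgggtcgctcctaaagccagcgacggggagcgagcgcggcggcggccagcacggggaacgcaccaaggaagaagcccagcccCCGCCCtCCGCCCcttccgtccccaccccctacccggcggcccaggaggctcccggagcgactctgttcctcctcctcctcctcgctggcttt

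Pdgfa, other region: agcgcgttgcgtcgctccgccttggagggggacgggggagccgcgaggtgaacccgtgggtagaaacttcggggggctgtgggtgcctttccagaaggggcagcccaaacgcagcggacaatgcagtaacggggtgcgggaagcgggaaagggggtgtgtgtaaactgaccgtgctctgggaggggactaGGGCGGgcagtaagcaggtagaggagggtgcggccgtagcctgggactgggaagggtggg

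The brighter Pdgfa probe (chr5:139230717-139230776, minus strand, mm8) read 21900 and 21200 in the RNA labelled KO against 11100 and 13600 in the RNA labelled WT. Its log2 ratios were 0.98 and 0.64, a mean of 0.81 ± 0.239 (SD, n = 2 arrays). The other probe (chr5:139232820-139232879) read 2070 and 2010 against 1050 and 1180, with ratios of 0.98 and 0.78 and a mean of 0.88 ± 0.145 (SD, n = 2 arrays). Neither probe overlapped between genotypes, and they differed from each other by -0.07 (brighter minus dimmer), less than the spread between arrays. Higher ratios were found for 4.15% and 3.56% of detected probes. On Feature Extraction's ratio the means were 0.82 and 0.91, so the dye-swap mean of Pdgfa stayed under 2-fold there too.

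Pdgfb, the B chain, binds both receptors and recruits pericytes to vessels. Its brighter probe (chr15:79823152-79823211, minus strand, mm8) was dim. Its signals were 77.2 and 96.1 in the RNA labelled KO and 122 and 144 in the RNA labelled WT. The lowest signal of any probe well above background ranged from 59.8 to 67.3 over the genotypes and arrays. The log2 ratios were -0.66 and -0.59, a mean of -0.62 ± 0.0522 (SD, n = 2 arrays), or 1.54-fold lower. The value moved with the processing. It was -1.05 with a constant of 10, -0.83 without background subtraction and -1.88 on Feature Extraction's ratio, where Pdgfb passed 2-fold on both arrays at -1.84 and -1.93. Scored by that ratio, 1 of the 12 member probes passed in the lower direction, beside 5.04% of all 24186, and 2 in the higher direction, beside 5.29%. The scanned signal in the RNA labelled KO was 69.3 over a background of 38 on array 1 and 47.8 over 26 on array 2, and in the RNA labelled WT 79.0 over 32 and 154 over 28.5. The direction was the same in every setting run, with values from -0.36 (the mean over both probes) to -1.88. The other Pdgfb probe (chr15:79823963-79824022) reached the flag in the RNA labelled KO on 1 array only, and had a mean of -0.10.

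Pdgfc encodes the other chain with a CUB domain. Its 2 bright probes start 153 bases apart on the plus strand of chromosome 3. The brighter (chr3:81299577-81299636, mm8) read 3850 and 4300 in the RNA labelled KO and 5510 and 5270 in the RNA labelled WT, with log2 ratios of -0.52 and -0.29 and a mean of -0.41 ± 0.157 (SD, n = 2 arrays). The next (chr3:81299424-81299483) had a mean of -0.45 ± 0.08 (SD, n = 2 arrays). Both were lower on both arrays, without overlap between genotypes. The third probe (chr3:81296387-81296446), made to the clone AK081347, read between 71.7 and 76.5 in all 4 channels and was well above background in only 1 of them, and its mean was 0.01. The start region of Pdgfc held 1 TEAD core, 137 to 132 bases before the start.

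Of the receptors, Pdgfra encodes PDGFR-alpha, the receptor of the A and C chains and a marker of mesenchymal cells. Its brighter probe (chr5:75479560-75479619, plus strand, mm8) was printed in 10 spots on each array and read 2310 and 2070 in the RNA labelled KO against 2770 and 3070 in the RNA labelled WT. Its log2 ratios were -0.26 and -0.57, a mean of -0.41 ± 0.216 (SD, n = 2 arrays). On array 1 the 10 spots ran from -0.32 to -0.17 with an SD of 0.0397, and on array 2 the 6 spots kept after flagging ran from -0.60 to -0.54 with an SD of 0.0237. The spots of a single array were therefore closer to each other than the arrays were, and the 2 ranges did not meet. The other probe (chr5:75445285-75445344), 34275 bases away, read from 118 to 127 in the 4 channels with a mean ratio of -0.06. The start region of Pdgfra held none of the 4 motifs.

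Pdgfrb encodes PDGFR-beta, the receptor of the B and D chains, and had 1 probe, on chromosome 18. It read 22400 and 19800 in the RNA labelled KO and 21900 and 23100 in the RNA labelled WT, so the genotypes overlapped. The log2 ratio was 0.03 on array 1 and -0.23 on array 2, a mean of -0.10 ± 0.181 (SD, n = 2 arrays). No difference larger than the spread between arrays was measured for it. Its sign changed to 0.03 when each array was centred on its median in place of loess.

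The order of the genes by mean log2 ratio was Pdgfd, Pdgfa, Pdgfrb, Pdgfc, Pdgfra and Pdgfb. The SD of a difference between 2 such means, from the spread over all probes well above background in both genotypes, was 0.137, and 2 SDs were 0.274. The gap from Pdgfd to Pdgfa was 1.71 and that from Pdgfa to Pdgfrb 0.91. Pdgfrb and Pdgfc were 0.31 apart, and on array 2 alone they were at -0.23 and -0.29. Pdgfc, Pdgfra and Pdgfb followed with gaps of 0.0066 and 0.21, within the spread. The last gap was wider in other settings. Pdgfb was at -1.05 against -0.42 for Pdgfra with a constant of 10 and at -1.88 against -0.42 on Feature Extraction's ratio. With the mean over all probes Pdgfc (-0.28) and Pdgfra (-0.24) changed places. The median over the 6 genes was -0.25, against -0.00033 over all 27579 genes with a value. It was -0.26 on array 2 alone and -0.11 on array 1 alone. The sign was the same on both arrays for 5 of the 6 genes and 10 of the 12 probes. The shares over all genes and probes are not given here.

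**Figure D3:**
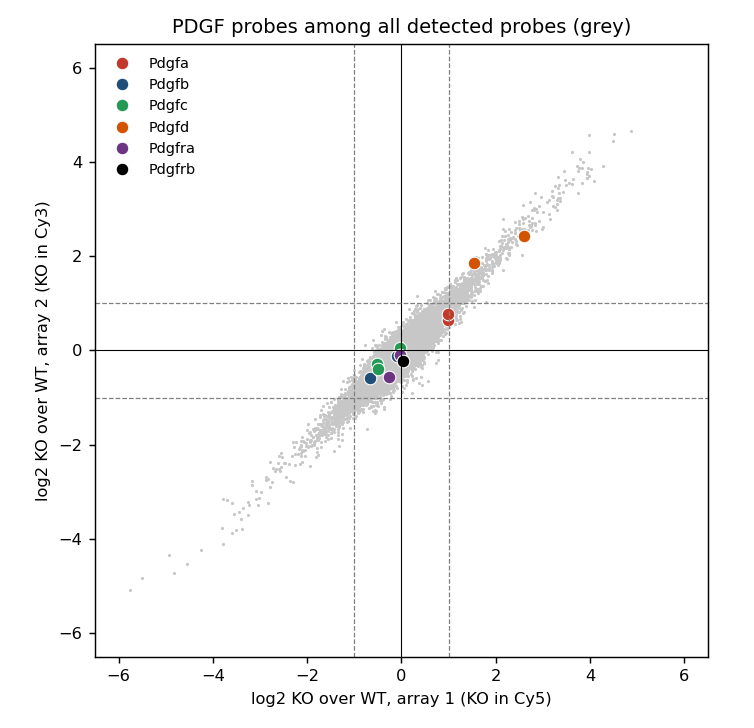
Log2 ratio of KO over WT on array 1 (horizontal) against array 2 (vertical) for all probes detected well above background in the RNA of at least 1 genotype (grey) and the 12 PDGF probes (coloured by gene), with dashed lines at 2-fold. The Pdgfd probes lie far up the diagonal formed by the other probes, Pdgfa lies short of the dashed corner, and the remaining members lie inside the dashed square.

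Before loess the ratios of most members changed with the dye. With each array centred on its median, 8 of the 12 probes had opposite signs on the 2 arrays, among them Pdgfc (0.43 and -1.12), Pdgfra (0.62 and -1.37) and Pdgfa (2.07 and -0.23). The share over all probes is not given here, so this count is not read as a trait of the members. Pdgfd was at 3.30 and 1.72 and kept its sign. The means of the 2 arrays were then 0.92 for Pdgfa and 0.03 for Pdgfrb.

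**Figure D4:**
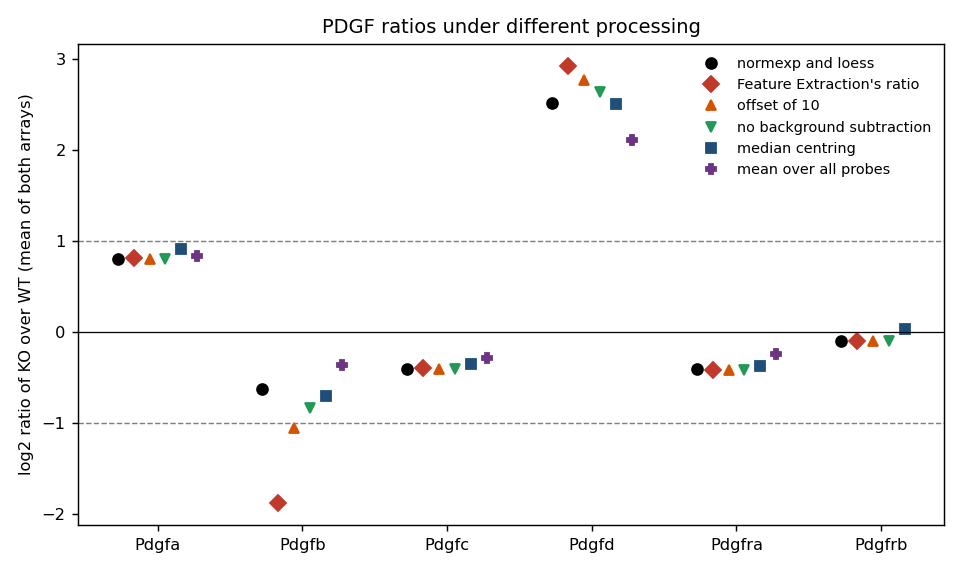
Mean log2 ratio of KO over WT over both arrays for each PDGF gene under 6 ways of processing the same signals, with dashed lines at 2-fold. The symbols lie close together for Pdgfa, Pdgfc, Pdgfra and Pdgfrb, with Pdgfrb crossing 0 under median centring (0.03), and spread for Pdgfb (-0.36 to -1.88) and Pdgfd (2.11 to 2.93).

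The rest of the pathway was described from 8 gene lists, each gene by its brightest probe, in counts and medians only. The proteases and inhibitors that bear on PDGF activation had 7 of 10 genes well above background. Plat, encoding tissue plasminogen activator, which cleaves the CUB domain from PDGF-C, was 3.69-fold lower in the RNA labelled KO. It read 720 and 687 against 2580 and 2600, and the other 2 probes of the gene were nearer 0, the nearest at -0.25. Plau, encoding urokinase, an activator of PDGF-D, was at 0.50, and Furin, a proprotein convertase, at -0.34. Plg, plasminogen, was not well above background. The list's median was -0.07.

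In the list of proteins taken to bind PDGFs or associate with their receptors, 10 of 11 measured genes were well above background. Pdgfrl, encoding a secreted protein that resembles the ligand-binding part of PDGFR-beta, was 3.94-fold higher, at 8770 and 8710 in the RNA labelled KO against 2220 and 2210 in the RNA labelled WT. Its log2 ratio was 1.98 on each array, while its other probe was at -0.04. Itgb3, the integrin beta-3 subunit that complexes with PDGFR-beta, was 3.49-fold lower at 1 probe (545 and 548 against 1880 and 1930) and at -0.15 at the other. Gas1, a growth arrest gene also put in this list, was 2.78-fold lower (1140 and 1040 against 2960 and 3090). No source used here shows that its protein binds a PDGF or a PDGF receptor. Sparc, a matrix protein that binds PDGF-B, was at -0.63. The median was 0.05.

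Inside the cell, 34 of 35 genes for the proteins that act directly behind the receptor were well above background, and 1 passed 2-fold in the higher direction, a share near the 2.95% of all genes. Grb10, an adaptor that binds activated receptor tyrosine kinases, was 5.36-fold higher (15500 and 16500 against 3110 and 2870), with its 3 probes between 1.27 and 2.42. The median of the list was 0.13. Of 16 negative regulators, 15 were well above background and none passed 2-fold on both arrays. Spry1, a Sprouty inhibitor of Ras signalling, was highest at 0.90, and Ptprj, a phosphatase of PDGF receptors, lowest at -0.83. The median of the list was 0.05.

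Of 10 genes that PDGF is known to induce in fibroblasts, 9 were well above background, 1 passed 2-fold in the higher direction and 4 in the lower, beside 2.95% and 2.61% of all genes. The 4 were immediate early genes. Egr1, a zinc finger transcription factor, read 811 and 715 against 11200 and 12300, 15.4-fold lower. Fos, a subunit of AP-1, was 13.3-fold lower (399 and 377 against 4830 and 5530). Ier2 and Junb were 3.30-fold and 2.86-fold lower. Ptgs2, encoding cyclooxygenase-2, was 2.14-fold higher, at 748 and 687 against 348 and 322. The remaining members that were well above background (Myc, Ccl2, Cyr61 and Srf) lay between 0.28 and 0.67, so the list was split, with a median of 0.06. These genes respond to many stimuli, and no PDGF was added here. Of 12 transcription factors reported to act on PDGF or PDGF receptor genes, 8 were well above background, and Egr1, also in that list, was the 1 that passed 2-fold. Foxc1 was highest at 0.77. The median was -0.08.

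In the related families, the VEGF ligands and receptors had 8 of 10 genes well above background. Nrp2, a co-receptor for VEGF-C, was 3.30-fold lower (9910 and 8500 against 33700 and 27200). Flt1, encoding VEGF receptor 1, had the highest ratio, 0.93 and 1.33 on the arrays, and its 5 probes ran from -0.07 to 1.97. Kdr and Flt4, the other VEGF receptors, were not well above background. The median of the list was 0.21. Of the other class III receptor tyrosine kinases and their ligands, 5 of 7 genes were well above background. Csf1, the macrophage growth factor, was 2.84-fold higher (15800 and 17600 against 5720 and 6040). Il34, a further ligand of the Csf1 receptor (2010004A03Rik on the array), was 2.49-fold lower (148 and 174 against 387 and 412). The receptors Kit and Csf1r were at 0.0044 and -0.05, Kit not well above background, and the median was -0.02.

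**Figure D5:**
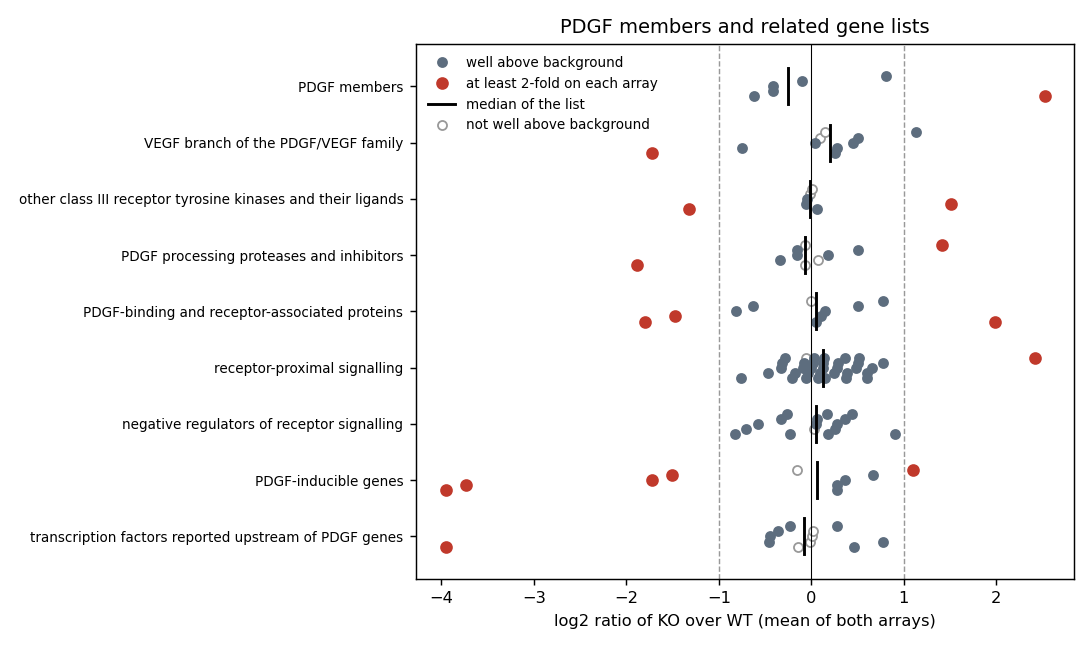
Mean log2 ratio of KO over WT of the PDGF members and of 8 related gene lists, 1 point per gene, red where the gene passed 2-fold on each array, open where it was not well above background on both arrays in at least 1 genotype, with a black bar at the list's median and dashed lines at 2-fold. Medians lie between -0.25 and 0.21, and each list has at most 5 red points.

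The cell type was checked with marker lists. All 9 measured fibroblast markers were well above background on both arrays in at least 1 genotype. In the RNA labelled KO 8 were, since Vim, dim at 74.8 and 79.2 against 130 and 156, reached the flag there on 1 array only. For Vim and for Col1a2, with 2 probes each, the lowest and highest probe ratio were the same, at -0.89 and 0.0012. Only probes with a value on both arrays could stand for a gene, so a brighter probe may have been left out. The dim Vim signal is therefore not a measure of its level. The median log2 ratio of the fibroblast markers was -0.45, and Postn (-1.69) was past 2-fold. Summed signals were 121000 and 113000 in the RNA labelled KO and 185000 and 184000 in the RNA labelled WT. Such sums, here and below, follow the brightest probes and do not measure the amount of a cell type. Postn, at 22900 and 19600 against 71700 and 65600, made up most of the difference between the sums, while Fn1 was at 0.89 and Col1a2 at 0.0012. Of 8 endothelial markers 0 were well above background. Since PDGF receptors also mark mural cells, pericyte and smooth muscle markers were read beside them. Of 7 pericyte markers 5 were well above background and 0 passed 2-fold on each array, with summed signals of 8370 and 8660 against 10200 and 10300. Cspg4 was at -0.78, Notch3 at -1.07 (-0.96 and -1.17 on the arrays) and Mcam at 0.61. Over all detected genes 2.95% passed 2-fold on each array in the higher direction and 2.61% in the lower. Of 7 smooth muscle markers 6 were well above background, their median log2 ratio was -0.46, and Cnn1 was past 2-fold at -2.11. Myh11, Smtn and Lmod1 were also lower, at -0.46, -0.53 and -0.54. Their summed signals, 53000 and 51700 against 46500 and 45000, went the other way and were carried by the bright probes of Acta2 (0.79, with 5 probes from -0.64 to 0.93) and Tagln (0.13). Epithelial markers had 2 of 7 well above background, both dim (Krt5 80.5 to 93.9, Krt14 98.1 to 107). The lowest signals of any probe well above background were 59.8 to 67.3. Leukocyte and macrophage markers had 4 of 8. Lyzs (1.1, its other probe 0.13) and Cd14 (-1.05) were past 2-fold, and Cd68 and Csf1r were dim (72.5 to 94.1). Megakaryocyte markers had 2 of 4 measured. Ppbp was 2.39-fold higher for KO by a bound, used since its WT channel missed the flag on both arrays. The bound was taken on each array against the WT signal or the lowest signal of any probe well above background, whichever was higher. On array 1 the WT channel missed the flag at 77.5, above that lowest signal of 66.9, so the bound is not a firm limit. Neural and glial markers had 5 of 7 measured, with Mbp at 2.29 (3 probes from -0.058 to 2.29) and Sox10 dim (76.9 to 79.6). The part of these markers in the PDGF values was not tested. In RNA from a whole culture, fewer cells of a type and less RNA per cell cannot be told apart.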

How the data were processed

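Total RNA was copied from an oligo-dT primer, labelled with Cy3 or Cy5 and hybridised in pairs to 2 Agilent whole mouse genome arrays. The authors deposited Feature Extraction (version 10.5.1.1 per the labels) tables with the mean signal and median local background of each spot as intensity. Beside them the deposited tables give a log10 ratio of Cy5 over Cy3, multiplied here to log2. A further table of log2 ratios that the authors deposited differed from Feature Extraction's ratio, with both arrays turned to KO over WT, by a median of 2.04e-07 and 2.06e-07 on the 2 arrays. Well above background, saturation and outlier flags (other values) were taken from the deposited tables. Per the file headers probe coordinates are on mm8, and the exon or untranslated region a probe lies in was not analysed.

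The background was corrected by normexp with an offset of 50 (limma 3.58.1, R 4.3.3), and signals were normalised by loess within each array. Of 45018 spots per array 1639 were controls, and 390 and 378 of the 43379 probe spots carried outlier flags. Both kinds were left out. Median signals were 96.8 (Cy5) and 60.1 (Cy3) on array 1 and 98.5 and 58.2 on array 2, over median backgrounds of 30 to 36. The number of arrays limits the precision. Spots of a probe were averaged, array 2 was turned, and the mean log2 ratio of KO over WT is given. Levels are channel values after loess and Aquantile. A probe was called when it was at least 2-fold the same way on each array and well above background on both arrays in the higher genotype (for repeated spots, in a share of 0.5 of them). A gene was represented by its brightest probe among those with a value on both arrays. The scripts were tested on a simulated dye swap, in which only probes well above background in both genotypes were changed. Of probes changed by 1.5, 2 and 3 on the log2 scale, 74.2%, 85.1% and 100% were called. The median estimate was 0.861 to 0.9 of the true change, so the processing missed some changes and understated their size.

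The members, the 8 pathway lists and the 8 cell type marker lists were chosen with earlier results of these data known. The text names every member, Lats1 and Lats2, each called gene and the highest and lowest detected gene of each pathway list, and the 3 genes nearest to the member with the largest ratio. Some genes that meet this rule are not reported here. Other genes named were picked after their values were seen. Start regions came from RefSeq tables (GRCm38.p6), with chromosome 18, and so Pdgfrb, left out. In them 4 of the 6 members had 5 windows used here. Alternatives were Feature Extraction's ratio, the deposited log2 table, median centring, Aquantile, an offset of 10, no background subtraction, each array alone, all probes of a gene, other detection filters and call rules, the methods' t-test and limma's test.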

Additional observations from a re-analysis of the deposited data

How the results depend on the processing

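Of 197 recomputed values of 19 results, 150 stayed within the spread between arrays (for counts, within 1.5 times) and 47 did not. 1 member was called higher under every alternative except the methods' t-test after Benjamini-Hochberg adjustment, which called 0 members and 0 probes in either direction. At its unadjusted threshold that test called 524 probes higher and 443 lower. With limma's test the counts were 662 and 598, the same as with the 2-fold limit on the mean of both arrays alone. The ratio of Feature Extraction and the deposited log2 values gave 2.93 for Pdgfd, -1.88 for Pdgfb (1 member then called lower), and medians of 0.43 (VEGF branch), 0.22 (negative regulators), 0.23 (PDGF-inducible) and -0.23 (upstream factors). They called 1280 or 1284 probes higher and 1220 or 1224 lower, against 599 and 503. An offset of 10 gave 2.77, -1.05, 0.33 (VEGF branch) and -0.12 (PDGF-inducible, opposite in sign). No background subtraction gave 2.64 and -0.83. Median centring gave 0.92 for Pdgfa and 0.03 for Pdgfrb, and called 321 probes higher and 169 lower. The mean over all probes gave 2.11 for Pdgfd, -0.36 for Pdgfb, -0.28 for Pdgfc and -0.24 for Pdgfra. Restricting lists to genes above background gave 0.28 (PDGF-inducible) and -0.30 (upstream factors). The cause of these shifts was not tested.

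Each array alone gave 0.64 to 0.98 for Pdgfa, -0.66 to -0.59 for Pdgfb, -0.52 to -0.29 for Pdgfc, 2.42 to 2.61 for Pdgfd, -0.57 to -0.26 for Pdgfra and -0.23 to 0.031 for Pdgfrb, a member median of -0.26 to -0.11, 0.048 to 0.28 for the VEGF branch, 670 to 715 probes higher and 584 to 666 lower. Each ratio already pairs the RNAs labelled KO and WT on 1 array. No analysis over replicates was possible because the 2 arrays are 1 dye swap without numbered replicates. Signals near background limit Pdgfb.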
